A study of Mus musculus with 3 samples.

Results

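The cytochrome P450 genes were examined in endothelial cells sorted from the cortex of the adult mouse kidney. The members are all genes on the array whose symbol begins with Cyp and a family number and that have a probeset of their own, 87 of 19938 genes, 3 of them pseudogenes. A further 15 protein-coding P450 genes of the RefSeq table, Cyp19a1 and Cyp24a1 among them, were not analysed here. The material was 3 samples of GFP-positive cells, called replicates 1, 2 and 3, all of 1 group. Each was made from a single adult kidney of the Tie2-GFP line, Tg(TIE2GFP)287Sato, which expresses GFP under the promoter of Tek, an angiopoietin receptor gene of endothelial cells. The mice had a mixed background, mainly CD-1, their sex was given as unknown, and glomeruli had been removed on a mesh. The study calls its samples independent, but the labels do not say that they came from different mice.

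Cytochromes P450 are heme enzymes that put an oxygen atom into fatty acids, steroids, vitamins and foreign compounds. Most sit in the endoplasmic reticulum and take electrons from a reductase, while a few sit in mitochondria and take them from ferredoxin. In the kidney the proximal tubule is rich in P450 enzymes. They are known there for the hydroxylation of arachidonic acid at its end (omega), for its epoxides, which widen vessels, and for the last activating step of vitamin D.

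Values are log2 signals, and each mean was tested by limma against a signal of 100 (log2 6.64), the raw level that the study's methods use as a filter. "Above" and "below" refer to this test, one-sided each way, at an adjusted p under 0.05. Signals of different probesets depend on their probes, so no gene is ranked against another by level. Of the 87 P450 genes 6 were above, 70 were below and 11 were neither. Above were 6.90% of the members, where the share over all 19938 named genes was 21.2%, and below were 80.5%, where the share was 63.1%. A mean signal of 100 or more, with no test, was reached by 10 members, 11.5% of them, against 30.7% of all named genes, and such a signal in every sample by 9 members, 10.3%, against 28.0%. All of these differences are descriptions, since the members are no random draw of genes. The median over the members' probesets was a log2 signal of 4.86 and that over the probesets of all named genes 5.88, given as a description only, since their probes differ.

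**Figure D1:**
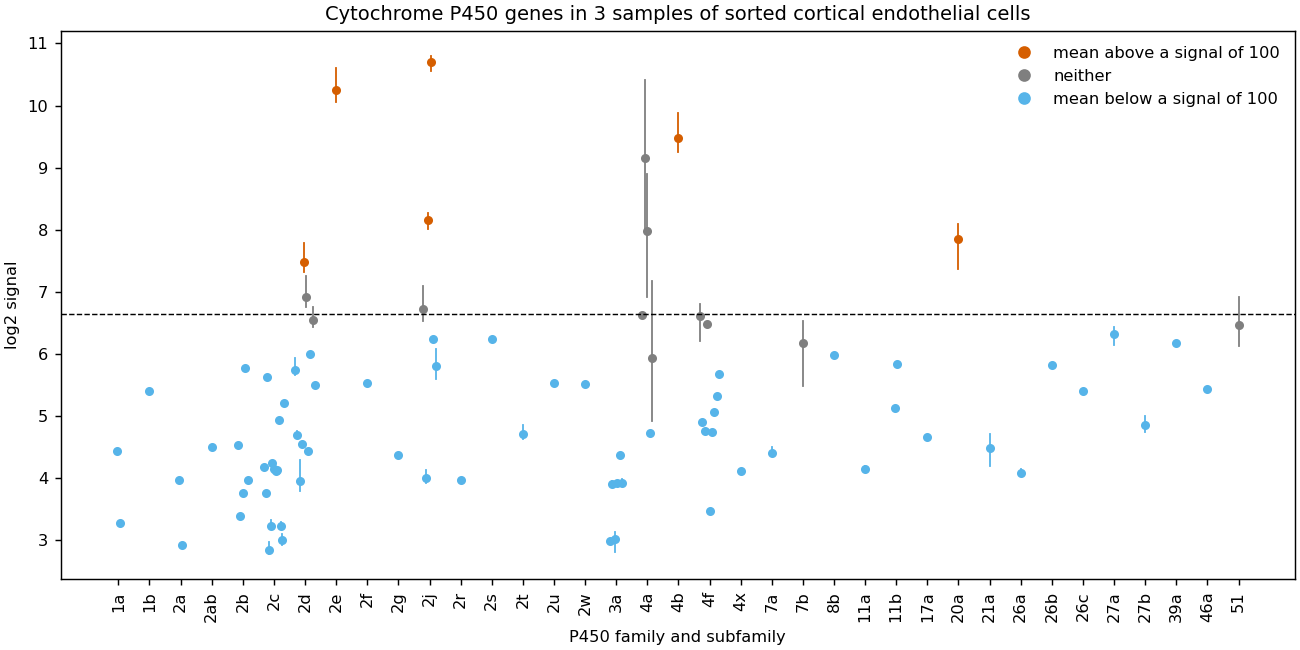
Log2 signal (y axis) of the 87 P450 genes by family and subfamily (x axis), with the mean of 3 samples as a point and the lowest to highest sample as a line, coloured by the test against a signal of 100 (dashed line). The 6 genes above lie in subfamilies 2d, 2e, 2j, 4b and 20a, and the longest lines are in subfamily 4a.

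The 6 genes above the limit were Cyp2e1, Cyp2j5, Cyp2j13, Cyp4b1, Cyp2d22 and Cyp20a1. Start regions of the first 4, the genes whose call held without any 1 of the samples, are shown next to those of Cyp2c37 and Cyp2c70, which were below and carry a sequence that is frequent among P450 genes. They are up to 150 bases that lie before the gene's extent in RefSeq, build GRCm38.p6, at chr7:140763669-140763818 on the plus strand for Cyp2e1, chr4:96664172-96664269 on the minus strand for Cyp2j5, chr4:96077567-96077697 on the minus strand for Cyp2j13, chr4:115647722-115647871 on the minus strand for Cyp4b1, chr19:39992274-39992423 on the plus strand for Cyp2c37 and chr19:40187287-40187436 on the minus strand for Cyp2c70. Capitals mark matches, on either strand, to TATAAA (the TATA box), AGGTCA (a nuclear receptor site), CAAAGTC (the core bound by HNF4 proteins), GTTAAT (an HNF1 site) and GCGTG (the core bound by the dioxin receptor).
Cyp2e1: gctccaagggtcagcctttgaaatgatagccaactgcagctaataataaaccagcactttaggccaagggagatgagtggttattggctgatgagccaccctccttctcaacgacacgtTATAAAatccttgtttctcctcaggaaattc
Cyp2j5: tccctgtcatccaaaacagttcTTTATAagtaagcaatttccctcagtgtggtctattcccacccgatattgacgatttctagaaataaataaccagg
Cyp2j13: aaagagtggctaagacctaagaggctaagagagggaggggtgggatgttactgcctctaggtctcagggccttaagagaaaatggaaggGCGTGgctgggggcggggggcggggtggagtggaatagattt
Cyp4b1: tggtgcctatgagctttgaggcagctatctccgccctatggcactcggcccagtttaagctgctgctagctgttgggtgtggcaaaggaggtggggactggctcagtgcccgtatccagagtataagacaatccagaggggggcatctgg
Cyp2c37: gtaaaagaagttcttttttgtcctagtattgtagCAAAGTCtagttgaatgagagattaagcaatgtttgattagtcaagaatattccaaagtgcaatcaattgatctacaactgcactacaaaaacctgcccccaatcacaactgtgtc
Cyp2c70: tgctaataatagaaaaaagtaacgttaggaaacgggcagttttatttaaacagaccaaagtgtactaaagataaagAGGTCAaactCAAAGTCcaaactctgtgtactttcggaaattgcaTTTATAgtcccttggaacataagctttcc

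These letters were searched in the 250 bases before the outermost start among the RefSeq promoter entries of each gene. There were 27025 such genes, 64 of them P450 genes. Searched bases can lie within a gene's extent, as for Cyp2j5 and Cyp2j13, whose stretches shown are therefore shorter. CAAAGTC stood before 15 of the 64 P450 genes (23.4%) and before 3.8% of all genes. Of the 15, 8 were Cyp2c genes, out of 11 Cyp2c genes with an entry. All 15 were below the limit, as were 53 of the 64 P450 genes with an entry, so most would be below in any case. TATAAA stood before 35.9% of the P450 genes and 13% of all, and AGGTCA before 21.9% and 13.8%. GCGTG stood before 23.4% and 28.3%, and GTTAAT before 4.69% and 6.54%. Among the 5 genes above with an entry, Cyp2e1 and Cyp2j5 had TATAAA on either strand, Cyp2j5 had AGGTCA, and Cyp2j13 and Cyp20a1 had GCGTG. Cyp4b1 held none of these letters in the stretch shown. Matches are a description of the letters and no evidence that a factor binds.

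Family 2, the largest, holds enzymes for foreign compounds and the arachidonic acid epoxygenases. Of its 45 measured genes 4 were above, 38 were below and 3 were neither. Cyp2e1, which oxidizes ethanol and other small molecules, read 10.60, 10.05 and 10.08 on the log2 scale in replicates 1, 2 and 3, 10.24 ± 0.31 as mean and SD (n = 3; limma, adjusted p = 0.00144). Every sample lay well over the limit, and replicate 1 was the highest of the 3.

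The Cyp2j subfamily holds epoxygenases, and 2 of its 6 measured genes were above. Cyp2j5, a kidney and liver epoxygenase, had 10.79, 10.56 and 10.74 (mean 10.70 ± 0.13, SD, n = 3; limma, adjusted p = 0.000299). Cyp2j13 had 8.27, 8.01 and 8.18 (mean 8.15 ± 0.13; adjusted p = 0.00222). The 3 samples of each gene lay close together, in the same order. Cyp2j11 was neither, at 6.54, 6.53 and 7.09, with only replicate 3 over the limit. Its mean signal was 105, and the adjusted p of 0.926 from limma is for the other side, below 100. Cyp2j6 was below at 6.24 in each sample, Cyp2j9 at 5.81 ± 0.25 and Cyp2j12 at 4.00 ± 0.12. The call of Cyp2j6 did not hold without replicate 1 (adjusted p = 0.0961), 2 (0.0957) or 3 (0.0839). Its mean stayed the same, while each of these fits had 1 sample fewer and took the gene's variance from other probesets. Which of these cost the call was not tested. Cyp2j5 and Cyp2j13 lie at the outer ends of the row of measured Cyp2j genes on chromosome 4, with those below or neither between them.

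The Cyp2c subfamily holds epoxygenases too, and all 13 of its measured genes were below the limit, with means from 2.85 to 5.63. Below were 80.5% of all members. Cyp2c23, a known epoxygenase gene of the kidney, was at 4.19 in all 3 samples. Cyp2c29 had 3.76 in each, and Cyp2c37 and Cyp2c70, whose start regions are shown, had 5.63 and 5.21 in each. The list of epoxygenases took in all measured Cyp2c and Cyp2j genes, whatever their known substrate. Of these 19, 2 were above, 16 were below and 1 was neither. Their summed signal was 2576, 2249 and 2555 in replicates 1, 2 and 3, and Cyp2j5, with a mean signal of 1661, made up most of it. All 16 members on chromosome 19, where the Cyp2c cluster lies, were below.

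The Cyp2d genes encode enzymes for drugs and other foreign compounds, and 7 of the 10 measured were below, 1 was above and 2 were neither. Cyp2d22 was above, with 7.79, 7.33 and 7.33 (mean 7.48 ± 0.27, SD, n = 3; limma, adjusted p = 0.0263). The call did not hold when the SDs were used as deposited (adjusted p = 0.0501) or without replicate 1 (0.14), 2 (0.096) or 3 (0.0788). Cyp2d26 had 6.76, 6.76 and 7.25, all over the limit, and was neither (limma, adjusted p = 0.303, tested above 100). Cyp2d40 had 6.44, 6.44 and 6.75 and was neither (adjusted p = 0.283, tested below 100). Cyp2d26 and Cyp2j11 were the members just above a mean of 100, at signals of 121 and 105, and Cyp4a10 and Cyp4f13 those just below, at 98.4 and 97.6.

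The other genes of family 2 were below. All 5 Cyp2b genes, which are known for their induction by barbiturates in liver, had 3 equal values each, between 3.39 and 5.78. Cyp2s1 had 6.24, Cyp2u1, an enzyme gene for long fatty acids, had 5.54, and Cyp2r1, the vitamin D 25-hydroxylase gene, had 3.97, each the same in every sample. The call of Cyp2s1, whose values equal those of Cyp2j6, was lost in the same way.

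Family 4 holds the enzymes that hydroxylate fatty acids at their end. Of its 16 measured genes 1 was above, 9 were below and 6 were neither, and 4 of these 6 were Cyp4a genes. Cyp4b1, which acts on fatty acids of medium length and on some toxins, had 9.87, 9.25 and 9.33 in replicates 1, 2 and 3 (mean 9.48 ± 0.34, SD, n = 3; limma, adjusted p = 0.00276). As for Cyp2e1, replicate 1 was the highest and the others lay close to each other.

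The 3 widest ranges over the samples among all members were those of Cyp4a genes. Cyp4a12a, the gene of the main enzyme that makes the vessel-constricting 20-HETE in the mouse kidney, read 10.41, 9.07 and 7.97 on the log2 scale in replicates 1, 2 and 3. All 3 lay over the limit, but the range of 2.44, a factor of 5.43, left the mean of 9.15 ± 1.22 (SD, n = 3) neither above nor below (limma, adjusted p = 0.0602). Cyp4a12b had 8.91, 8.10 and 6.92, in the same order, with a range of 1.98, a factor of 3.95 (mean 7.97 ± 1.00; adjusted p = 0.155). Without replicate 3 both were above, with an adjusted p of 0.0383 for Cyp4a12a and 0.0435 for Cyp4a12b from limma, and Cyp4a12a was also above when dim probesets had been left out before the adjustment (0.0397). Since Cyp4a12a and Cyp4a12b are near-identical copies, their probesets may read each other's RNA.

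Cyp4a31 varied in another order, with 7.18, 4.93 and 5.70 (mean 5.94 ± 1.14, SD, n = 3; limma, adjusted p = 0.215, tested below 100). Only replicate 1 was over the limit. Cyp4a10, a target of the fatty acid receptor PPAR alpha, had 6.62 in each sample and was neither (adjusted p = 0.556). It was below with the SD as deposited, which is 0 for 3 equal values (adjusted p = 7.49e-05). Cyp4a14, another such target, was below at 4.73 ± 0.02.

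Of the 9 Cyp4f genes, whose enzymes act on leukotrienes and long fatty acids, 7 were below and 2 were neither. Cyp4f13 had 6.81, 6.21 and 6.81, and Cyp4f16 had 6.48 in each. Cyp4x1 was below, at 4.11 in each. Of the 15 measured members on the list of fatty acid omega-hydroxylases, 1 was above, 8 were below and 6 were neither. Their summed signal was 3437, 1923 and 1580, highest in replicate 1, while that of the Cyp2c and Cyp2j genes was lowest in replicate 2. Cyp4b1, Cyp4a12a and Cyp4a12b, with mean signals of 716, 568 and 251, made up most of the omega-hydroxylase sum. On that list 8 of the 15 genes had 3 equal values, so its differences between samples are not shared by the whole list. Chromosome 4, which carries the Cyp2j genes, the Cyp4a genes and Cyp4b1, held 14 members and 6 of the 10 members with a mean of 100 or more.

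**Figure D2:**
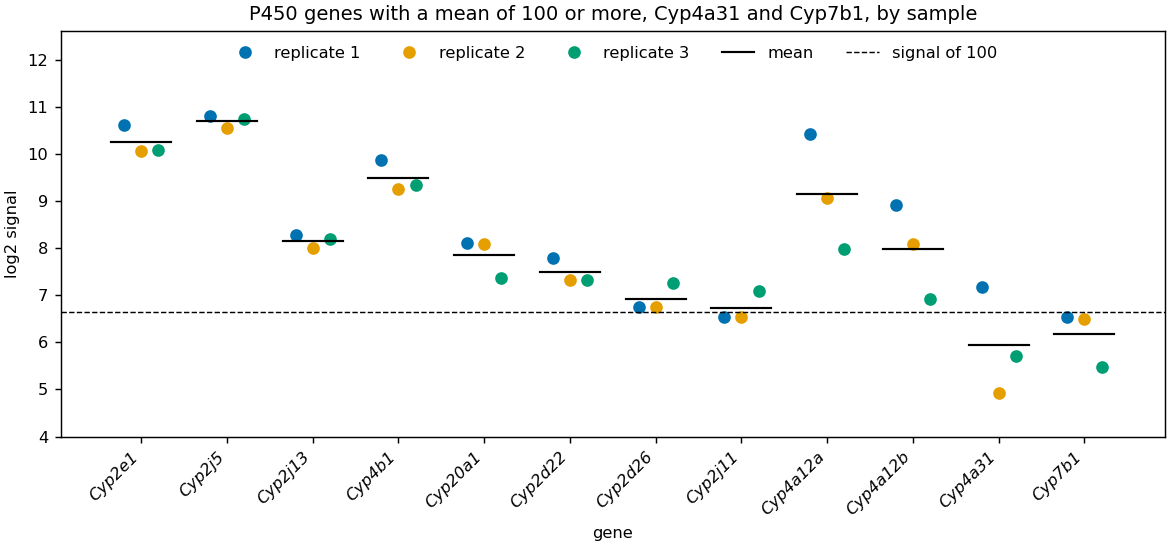
Log2 signal (y axis) in each of the 3 samples (coloured points) and their mean (bar) for the 10 P450 genes whose mean reached a signal of 100 and for Cyp4a31 and Cyp7b1, against a signal of 100 (dashed line). Cyp2j5 and Cyp2j13 vary by 0.24 and 0.26 over the samples, and Cyp4a12a and Cyp4a12b by 2.44 and 1.98, highest in replicate 1 and lowest in replicate 3.

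Families 1 and 3 hold enzymes for foreign compounds, and all 9 measured genes were below the limit, as were 80.5% of all members. Cyp1a1, the main target of the dioxin receptor, had a log2 signal of 4.44 in every sample. Cyp1a2 had 3.30, 3.25 and 3.30, and Cyp1b1, which vessel cells are known to use, had 5.41 in each. The 6 Cyp3a genes, the subfamily that oxidizes many drugs in liver, had means of 4.38 or less.

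Genes for vitamin D, sterols and bile acids were below the limit or close to it. Cyp27b1, the kidney's 1 alpha-hydroxylase gene, was below with 4.75, 5.01 and 4.81 (mean 4.86 ± 0.14, SD, n = 3; limma, adjusted p = 0.000283). Cyp27a1, a mitochondrial sterol 27-hydroxylase gene, had 6.43, 6.14 and 6.40 and was below (6.33 ± 0.16; adjusted p = 0.0288). That call did not hold without replicate 1 (adjusted p = 0.0935), 2 (0.164) or 3 (0.0981). Cyp2r1, the 25-hydroxylase gene named above, was below as well. All 3 measured genes of vitamin D metabolism were thus below, as were 80.5% of all members and 63.1% of all named genes.

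Cyp51, the gene of lanosterol demethylase in cholesterol synthesis, had 6.92, 6.35 and 6.13 and was neither (6.47 ± 0.41, SD, n = 3; limma, adjusted p = 0.323, tested below 100). Only replicate 1 lay over the limit. Cyp7b1, an oxysterol hydroxylase gene, had 6.53, 6.50 and 5.48 and was neither (6.17 ± 0.60; adjusted p = 0.152), with replicates 1 and 2 together and replicate 3 lower. Cyp7a1, the rate-limiting enzyme of bile acid synthesis in liver, was below at 4.41 ± 0.08, as were Cyp8b1 at 5.98, Cyp39a1 at 6.18 and Cyp46a1, the cholesterol 24-hydroxylase gene of brain, at 5.43 in each sample. The call of Cyp39a1, whose mean stayed the same, did not hold without replicate 1 (adjusted p = 0.0721), 2 (0.0721) or 3 (0.0632).

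The 5 measured genes of steroid hormone synthesis and the 3 genes that clear retinoic acid were all below, where the share over all members was 80.5%. Cyp11a1, which cuts the cholesterol side chain, had 4.16 ± 0.04, Cyp11b1 had 5.14, Cyp11b2, the aldosterone synthase gene, had 5.84, Cyp17a1 had 4.67 and Cyp21a1 had 4.48 ± 0.26 (SD, n = 3). Cyp11a1, Cyp11b1 and Cyp21a1 are also markers of the adrenal cortex, and all 5 adrenal markers measured were below. Cyp26a1, Cyp26b1 and Cyp26c1 had 4.08 ± 0.06, 5.83 ± 0.00 and 5.41 ± 0.05.

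Cyp20a1, whose substrate is not known, was above, with 8.10, 8.08 and 7.37 (mean 7.85 ± 0.41, SD, n = 3; limma, adjusted p = 0.0284). All 3 samples were over the limit and replicate 3 was the lowest. The call did not hold with the SDs as deposited (adjusted p = 0.0571), without replicate 1 (0.112) or without replicate 2 (0.113).

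A pair of P450 genes have other names and were not counted among the members. Ptgis, the prostacyclin synthase gene of vessel walls, was below the limit with 3 values of 6.13 (limma, adjusted p = 0.00496), and Tbxas1, the thromboxane synthase gene, was below at 5.70 ± 0.01 (adjusted p = 0.000251). The call of Ptgis, whose mean stayed the same, was lost without replicate 1 or 2 (adjusted p = 0.0593 for each) or 3 (0.0523).

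P450 enzymes need partners that supply electrons. Of the 8 redox partners measured, 4 were above, 2 were below and 2 were neither. Fdx1, the ferredoxin of the mitochondrial enzymes, had 3 values of 9.14 (limma, adjusted p = 0.000829). Cyb5a, cytochrome b5, had 9.92, 9.81 and 9.81 (mean 9.85 ± 0.06, SD, n = 3; adjusted p = 0.000262). Cyb5b had 8.47 ± 0.02 and Cyb5r3, its reductase, 8.79 ± 0.18, while Pgrmc1 had 7.24, 6.32 and 7.04 and was neither (adjusted p = 0.767, tested above 100). The reductase gene Por was not analysed here.

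Of the 4 epoxide hydrolases, Ephx1, which acts on foreign epoxides, was above at 8.86 ± 0.19 (SD, n = 3; limma, adjusted p = 0.00169). Ephx2, which hydrolyses the arachidonic acid epoxides, had 6.64, 6.38 and 6.69 and was neither (adjusted p = 0.336, tested below 100). Ephx3 was neither at 6.60 ± 0.53, and Ephx4 was below at 2.98 in each. Of 8 genes of heme synthesis 1 was above, Alad at 7.87 ± 0.30 (adjusted p = 0.0142), 3 were below and 4 were neither. The call of Alad was lost without replicate 1 (adjusted p = 0.059) or 2 (0.0561). Alas1, the first enzyme of heme synthesis, was neither, at 6.66 ± 0.29.

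Among 14 transcription factors that control P450 genes 3 were above, 7 were below and 4 were neither. Ahr, the dioxin receptor, had 7.92 in each sample and was above (limma, adjusted p = 0.00353), while Cyp1a1, Cyp1a2, Cyp1b1 and Ahrr, known targets of it, were all below. Nr1h4, the bile acid receptor, was above at 7.64 in each, and Hnf4a, a factor of liver and proximal tubule, was above at 7.62, 7.19 and 7.23 (mean 7.35 ± 0.24, SD, n = 3; adjusted p = 0.0314). The call of Hnf4a was lost without replicate 1 (adjusted p = 0.125), 2 (0.109) or 3 (0.103). That of Nr1h4, whose mean stayed the same, was lost without replicate 1 (0.074) or 2 (0.07), while Ahr stayed above. The receptors of foreign compounds, Nr1i2 at 5.08 and Nr1i3 at 5.55, and Ppara at 5.60 ± 0.29 were below.

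**Figure D3:**
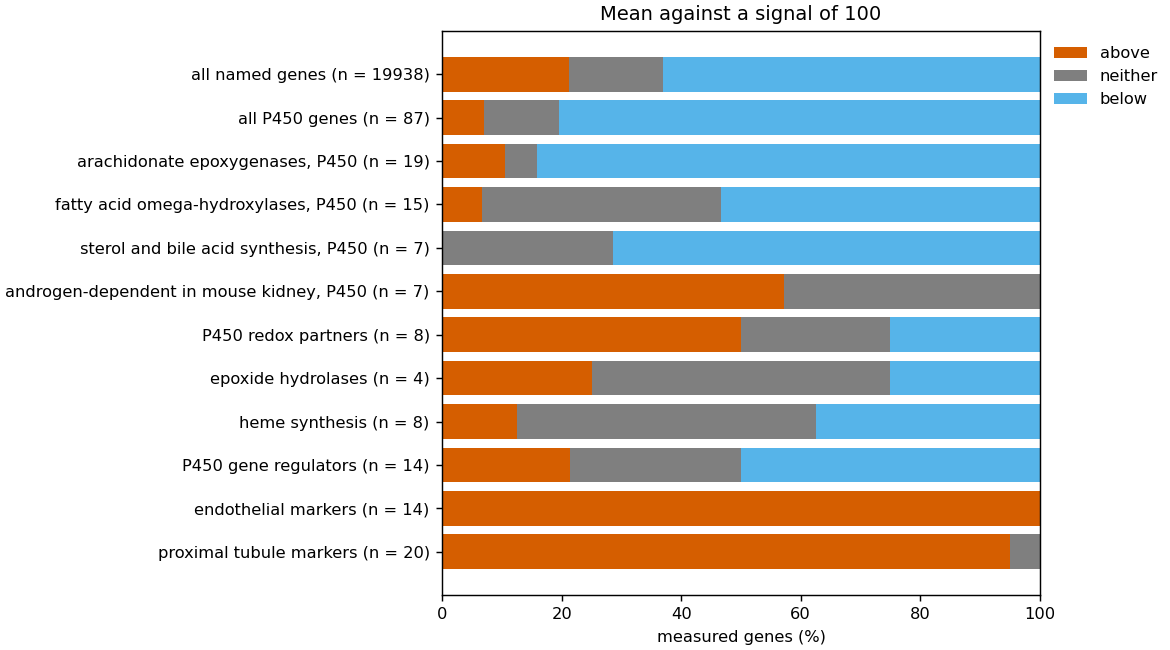
Share of measured genes (x axis, percent) with a mean above (orange), neither above nor below (grey) or below (blue) a signal of 100, for all named genes, the P450 genes, groups of them, related genes and 2 marker lists. The share above is 6.90% for the P450 genes and 21.2% for all named genes, while all 14 endothelial markers and 19 of 20 proximal tubule markers are above. The androgen-dependent group was drawn up with earlier results of these data known.

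Markers of both the endothelium and the tubule were above the limit in these cells. All 14 endothelial markers were above, among them Pecam1 at 10.07 ± 0.02 and Tek at 10.41 ± 0.16, and their summed signal was 14830, 15320 and 12801 in replicates 1, 2 and 3. Of the 20 proximal tubule markers 19 were above and 1 was neither, with sums of 23323, 20044 and 22009. Kap alone had a mean signal of 7459. The sums of these lists cannot be set against each other, since their probes and numbers of genes differ. The signal of Slc27a2, a fatty acid transporter gene, was 11.23 ± 0.28 on the log2 scale, and that of Kap, an androgen-regulated kidney gene, was 12.86 ± 0.18. In such a sort, RNA of tubule cells and RNA of the endothelial cells cannot be told apart for a P450 gene. Neither can fewer cells of a type and less RNA per cell. For its cortical endothelial cells the paper describes a proximal tubule profile among the cortex-specific genes and reads it as minor contamination. All 9 leukocyte markers were below, and 2 of 5 markers of the thick ascending limb, 3 of 12 of the distal tubule and collecting duct, 2 of 8 of smooth muscle and pericytes and 1 of 4 of podocytes were above. The podocyte marker above was Podxl, at 9.26 in each sample, while Nphs1, Synpo and Wt1 were below at 6.10, 5.92 and 5.41. Of the 5 liver markers 4 were below, among them Alb at 4.23 in each sample, and Apoa2 was above at 7.20 in each. The call of Apoa2, whose mean stayed the same, was lost without replicate 1 (limma, adjusted p = 0.198), 2 (0.191) or 3 (0.143).

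A group of 7 P450 genes is known to depend on androgens in the mouse kidney, and 4 of the 7 were above while the others were neither. Those above were Cyp2e1, Cyp2j5, Cyp2j13 and Cyp4b1, and the others were Cyp4a12a, Cyp4a12b and Cyp7b1. The list was drawn up with earlier results of these data known, so its count is a description and no result about such genes. Above were 6.90% of all members and 21.2% of all named genes. Xist, the RNA of the inactive X chromosome, was below at 4.92 in every sample, and the Y-linked Eif2s3y was above, with 7.52, 7.64 and 7.52. The call of Eif2s3y was lost without replicate 1 (adjusted p = 0.0553) or 2 (0.0866). Of other Y-linked genes, Kdm5d was below at 6.23 in each sample, and Uty was neither, with 6.21, 7.08 and 5.82. The call of Kdm5d, whose mean stayed the same, was lost without replicate 1 (limma, adjusted p = 0.091), 2 (0.0908) or 3 (0.0795).

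Most of the P450 genes with a mean of 100 or more were highest in replicate 1. Of these 10 genes, 9 had a higher signal there than in replicate 2 and 1 had the same, and the median of the differences was 0.36 (log2). Against replicate 3, 8 were higher in replicate 1 and 2 were lower, with a median of 0.49. Of the 6127 named genes with such a mean, 2536 had the same value in replicates 1 and 2, 2069 had the higher one in replicate 1 and 1522 the lower one. For replicates 1 and 3 the same genes gave 2213 equal values, 2234 higher in replicate 1 and 1680 lower, with a median of 0.00. Cyp2d26 and Cyp2j11 were the 2 that were higher in replicate 3. A range above 1 on the log2 scale was seen in 2 of the 10, and in 9.60% of the 6127 named genes with such a mean. Over all 87 members 4 had such a range, Cyp4a12a, Cyp4a12b, Cyp4a31 and Cyp7b1, a share of 4.60%, near the 4.33% of all named genes. Of all 19938 named genes, 70 had a range at least as wide as that of Cyp4a12a.

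The proximal tubule markers varied too, and the median of their ranges over the samples was 0.50, that of the 10 P450 genes 0.55 and that of the endothelial markers 0.23. Of the 20, 15 had a higher signal in replicate 1 than in replicate 2 (median 0.15), and against replicate 3, 8 were higher, 8 lower and 4 equal. Slc7a13, a transporter gene of the last segment of the proximal tubule, had the same order as Cyp4a12a, with 9.75 and 9.34 in replicates 1 and 2 and a signal lower by 1.74 in replicate 3 than in replicate 1. It was the only marker of the 20 with a difference above 1 between replicates 1 and 3. Kap had the same order with smaller differences, 13.03, 12.88 and 12.68. No other marker of the 20 had this order. Slc13a1, Slc5a12, Slc5a2 and Fbp1 were higher in replicate 3, with replicate 1 minus replicate 3 at -0.74, -0.73, -0.64 and -0.60. The summed signal of 8 smooth muscle and pericyte markers was 1671, 1678 and 3552, and so was higher in replicate 3, and that of 5 markers of the thick ascending limb was 3328, 1915 and 3097. The part of these markers in the differences of the P450 genes was not tested.

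**Figure D4:**
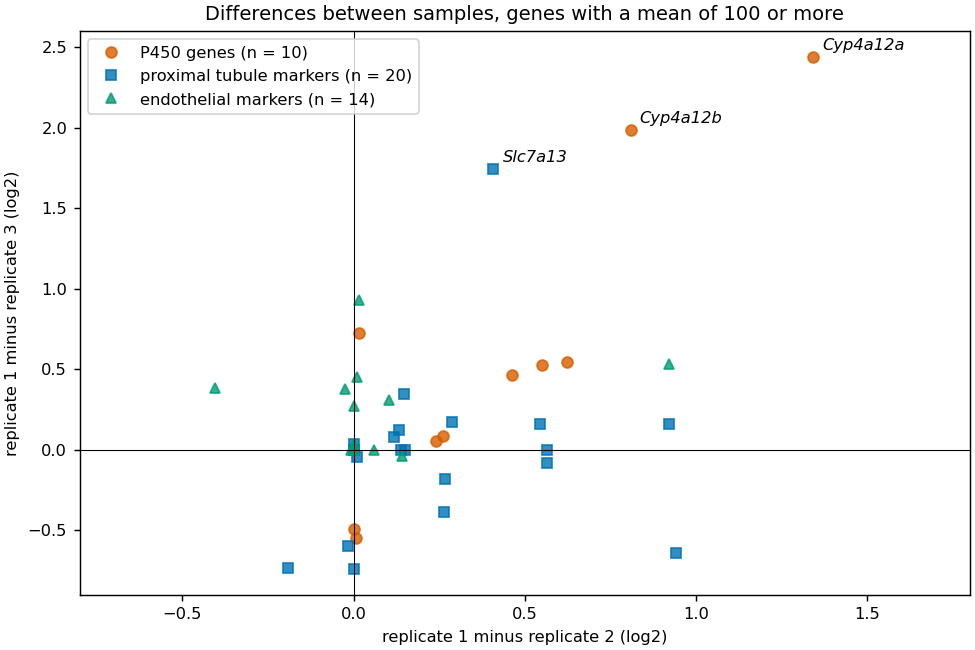
Difference on the log2 scale between replicates 1 and 2 (x axis) and between replicates 1 and 3 (y axis) for the P450 genes and for endothelial and proximal tubule markers whose mean reached a signal of 100. Cyp4a12a and Cyp4a12b lie at 2.44 and 1.98 on the y axis, Slc7a13 at 1.74, and all other genes drawn lie below 1.

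The deposited values come in steps, which bears on the errors given here. Each column of 35557 values held only 18823 to 19584 different ones. The 3 samples had the same value in all 5 decimals for 42 of the 87 P450 genes (48.3%) and for 51.2% of all named genes. Moreover 37 of the P450 genes had 3 values that another probeset also had, such as Cyp2j6 and Cyp2s1 at 6.24. Of the 10 P450 genes with a mean of 100 or more all had at least a pair of different values, but Cyp2d22 and Cyp2d26 had the same value in a pair of samples, so their SDs are affected by the steps too. An SD of 0.00 is no measure of the difference between mice.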

How the data were processed

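Endothelial cells were sorted from 3 adult Tie2-GFP kidneys, and their RNA, after 1 round of amplification, was read on Affymetrix Mouse Gene 1.0 ST arrays. The authors deposited log2 signals, 1 per probeset. RMA is named in the paper and Affymetrix Expression Console in the submitters' processing notes, and which arrays were normalized as a set is not given in those sources. No further transformation was applied. Precision is limited by the number of arrays.

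Of 35557 probesets, 21789 had 1 gene by GEO's platform annotation, 1621 several and 12147 none. All 87 member symbols matched RefSeq, each with 1 probeset. A further 7 probesets list a P450 gene among several and were not named (1 was above 100, 6 were below).

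The log2 signal minus the log2 of 100 was tested against 0 with limma 3.58.1 (R 4.3.3), an intercept being the only coefficient, with a variance trend (2 residual and 0.937 prior degrees of freedom). Probesets with 3 equal values took the trend of the others as their variance. Means were tested one-sided each way with Benjamini-Hochberg adjustment over all probesets at 0.05, and the fit was tested on simulated data. P-values measure the spread between these samples, which may be partly technical. For probesets with 3 equal values they rest on the spread of other probesets and not on their own. Such probesets were given the 2 residual degrees of freedom as well, which their own values do not supply. Their p-values may therefore be too small. Promoters came from RefSeq, build GRCm38.p6, and were searched in Python 3.11.15.

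Named genes are the members with a mean of 100 or more, members of each family, members just above and below 100, those with the widest range, and genes of 26 fixed lists. The members and lists were chosen with earlier results of these data known. Alternatives were limits of 50 and 200, every sample on 1 side of the limit, SDs as deposited, quantile normalization, equal medians, no trend, probesets under a signal of 32 left out, the probeset with the lowest mean, probesets of several genes added and each sample left out.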

Additional observations from a re-analysis of the deposited data

How the results depend on the processing

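The count of P450 genes above the limit was 6, and 21 with a limit of 50 in place of 100. With a limit of 200 it was 4, and with every sample on 1 side of 100 and no test 9. With SDs as deposited it was 4, and after quantile normalization, equal medians or no variance trend 6. It was between 4 and 7 without 1 of the samples. Taking the lowest probeset could not change it, since each P450 gene had 1 probeset. Over all named genes, where 21.2% were above, the share also moved: 48.4% with a limit of 50, 8.86% with 200, 28.0% with no test, 22.9% with SDs as deposited, while the number of genes above, 4220, was 2389, 2525 and 3043 without replicate 1, 2 and 3. The count below was 70, between 66 and 67 without 1 of the samples, and 24 when probesets under a mean signal of 32 were left out, which left 41 members to test, and all 24 were among the 70. With those probesets left out, 48.9% of the named genes tested were below. With a limit of 50 some genes lay on the other side of the limit, in log2 units above 50: Cyp11b2 by 0.20, Cyp26b1 by 0.18, Cyp27a1 by 0.68, Cyp2j6 by 0.60, Cyp2j9 by 0.16, Cyp39a1 by 0.53, Cyp4a10 by 0.98, Cyp4f13 by 0.96, Cyp4f16 by 0.83, Cyp51 by 0.82 and Cyp8b1 by 0.34. Against 200, Cyp2d22 was at -0.16, Cyp2d26 at -0.72 and Cyp2j11 at -0.92. The limits differ by construction. Cyp4f16, at 6.48 in each sample, was below after quantile normalization (adjusted p = 0.00589), with equal medians (0.00419) and with SDs as deposited (6.83e-07). The range of Cyp4a12a over the samples was 2.38 after quantile normalization and 2.40 with equal medians, alternatives chosen after seeing the data. No paired analysis was possible because the samples form 1 group. With 3 arrays, a mean near the limit cannot be placed on either side.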
